A study of Arabidopsis thaliana with 12 samples.

Results

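The 207 Arabidopsis thaliana genes described here lie beside the nucleolus organizers, the tandem arrays of rRNA genes at the tops of chromosomes 2 and 4. They are all the loci of the count table numbered AT2G01030 to AT2G01999, 92 genes, and AT4G00000 to AT4G00999, 115 genes, out of 27436 genes listed. Locus numbers follow chromosome order, so the rule takes genes by place and not by any measured value. The rule was set with earlier results of these data known. In the reference annotation (assembly TAIR10.1, matched by locus number, while the deposited counts were made on TAIR10) the chromosome 2 group runs from base 73208 to 466955 and the chromosome 4 group from base 2895 to 431862. Of the 207, 91 genes on chromosome 2 and 112 on chromosome 4 are annotated as protein-coding, and the rest are 2 tRNA genes, 1 ncRNA and 1 antisense RNA.

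The study measured mRNA in whole 7-day-old seedlings of the Col-0 ecotype, grown without treatment on 1/2 MS medium with 1% sucrose. It set pnet2_ac and pnet2_bc, which are double mutants, and pnet2_abc, a triple mutant, against wild type (WT). Each mutant is named by the letters of its mutated PNET2 genes. Each of the 4 genotypes had 3 strand-specific libraries. The labels name no alleles, and nothing in them tells if the 3 replicates were grown as separate plants or cultures, so the tests measure the spread between these libraries, which may be technical.

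The genes of the large rRNA precursor are repeated in long arrays that take up the tips of the short arms of chromosomes 2 and 4, and the nucleolus forms on the transcribed copies. In Col-0 the chromosome 2 array is largely silenced during development, and the chromosome 4 array supplies most of the rRNA. Silent copies are packed as heterochromatin at the nucleolar rim, and chromatin that borders the arrays, above all the short arm of chromosome 4, is known to be associated with the nucleolus. The PNET2 proteins are membrane proteins of the plant nuclear envelope, the other surface along which silent chromatin lies.

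Between 65758625 and 115881203 reads per library were counted in genes, so that 3 counts, used as the detection floor, corresponded to 0.0262 to 0.0436 counts per 1000000 (CPM, here on library totals scaled by edgeR's TMM method). This floor covers counting error only. The pnet2_abc libraries stood apart from the other 9 on the first principal component, which held 80.4% of the variance. The files do not say which of the 3 Arabidopsis genes with the DUF2215 domain is PNET2A, B or C. AT3G49840 had 2.17 ± 0.127 CPM in pnet2_abc, against 9.36 ± 1.36 CPM in WT (SD, n = 3 each, as for every mean below), AT5G67610 had 11.2 ± 0.705 CPM in pnet2_abc, against 21.6 ± 2.46 CPM in WT, and AT1G28760 had 47.4 ± 5.995 CPM in pnet2_abc, against 3.97 ± 0.444 CPM in WT. In pnet2_bc AT5G67610 was lower, at 14.8 ± 0.548 CPM (-0.55 ± 0.10, adjusted p = 0.032, edgeR), and no gene of the 3 was called in pnet2_ac, so transcript level did not check that label. Of 9 tissue marker genes tested, 4 fell in pnet2_abc and none rose: the leaf genes RBCS1A and LHCB1.3, the phloem gene SUC2 and the epidermal gene ATML1. The summed level of the 9 markers was 10220.4 to 10863 CPM in pnet2_abc, 29884 to 32595 CPM in pnet2_ac, 28464.0 to 31059 CPM in pnet2_bc and 30909 to 34720.0 CPM in WT, and no marker was at 0. RBCS1A and LHCB1.3 made up most of the sum in WT and in pnet2_abc, so the sum mainly follows these leaf genes. The root gene PYK10 was present, at 2087 ± 45.6 CPM in pnet2_abc and 2254 ± 106 CPM in WT. The seed storage gene CRA1 was low, with means above the floor, at 0.544 CPM in pnet2_abc and 0.178 CPM in WT, and was not called. In whole seedlings, fewer cells of a type and less RNA per cell cannot be told apart.

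The genes beside the arrays were ordinary in level. Their median was 16.3 CPM, or 12.1 TPM (transcripts per 1000000, a level per transcript length), over the 12 libraries, against 13.1 CPM and 11.3 TPM over the other nuclear genes. The most abundant by TPM were AT2G01250, a protein of the large ribosomal subunit, at 685 TPM, RPS13A (AT4G00100), of the small subunit, at 460.4 TPM, and the acidic ribosomal protein gene AT4G00810 at 365 TPM. ATOZI1 (AT4G00860), an ozone-induced gene, followed at 242 TPM, EXGT-A3 (AT2G01850), a xyloglucan endotransglucosylase of the cell wall, at 210.1 TPM, and the plasma membrane aquaporin PIP1;4 (AT4G00430) at 208 TPM. A low-count filter left 187 genes for testing, 85 on chromosome 2 and 102 on chromosome 4. The 20 others, 18 protein-coding and 2 tRNA genes, reached at most 28 counts or 0.382 CPM in any library.

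In the double mutants almost none of these genes changed. Against WT, pnet2_ac had 2 lower and no higher of the 187 tested, MEE11 and EXGT-A3, both on chromosome 2. They make up 1.07% of the tested genes, where 1.14% of all tested genes were called in this comparison and 0.69% were called lower. Calls here and below are at an adjusted p under 0.05 by edgeR's quasi-likelihood test with Benjamini-Hochberg adjustment over all 23330 genes tested. Other nuclear genes weighted to the same spread of levels were called in 1.19% of cases. DESeq2 called more genes throughout, 7 of the members in pnet2_ac, all lower (3.74%), and 4.60% of the other nuclear genes.

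MEE11 (AT2G01620, chromosome 2, 278124 to 279296) encodes a leucine-rich repeat protein of the RNI-like group and is named for a maternal effect on embryo arrest. It had 22.3, 21.1 and 19.1 CPM in the pnet2_ac libraries, 25.6, 25.8 and 25.1 CPM in pnet2_bc, 10.3, 12.9 and 11.1 CPM in pnet2_abc and 28.5, 29.8 and 28.3 CPM in WT. Every mutant library lay below every WT library, and the triple mutant was lowest. The log2 fold change was -0.47 ± 0.09 (SE) in pnet2_ac, with an adjusted p of 0.0319 by edgeR, and -1.33 ± 0.09 in pnet2_abc, with an adjusted p of 3.79e-08. The pnet2_ac call was lost whenever any 1 of the pnet2_ac or WT libraries was left out, with adjusted p between 0.0583 and 0.118, and at 0.161 without WT library 1 and pnet2_ac library 2, the libraries farthest from the rest of their groups.

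EXGT-A3 (AT2G01850, chromosome 2, 385171 to 387478), which cuts and rejoins xyloglucan chains of the wall, had 202, 198 and 204 CPM in pnet2_ac, 228, 234 and 253 CPM in pnet2_bc, 166, 169 and 171 CPM in pnet2_abc and 243, 257 and 261 CPM in WT. The pnet2_ac and WT libraries did not overlap, and pnet2_bc lay between them with its highest library inside the WT range. Its log2 fold change was -0.33 ± 0.06 in pnet2_ac (adjusted p = 0.0198, edgeR) and -0.59 ± 0.06 in pnet2_abc (adjusted p = 9.81e-07). The pnet2_ac call held without WT library 1 (adjusted p = 0.039) and was lost without any other pnet2_ac or WT library, at 0.0584 without pnet2_ac library 1, 0.0618 without pnet2_ac library 2, 0.0661 without pnet2_ac library 3, 0.0676 without WT library 2 and 0.0742 without WT library 3.

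In pnet2_bc no member passed edgeR's test, beside 0.643% of all tested genes. At an unadjusted p under 0.05 there were 16 members (8.56%, against 11.1% of the other nuclear genes), and DESeq2 called 2 (1.07%, against 2.92% of the others). The lowest adjusted p, 0.064, belonged to UNE10 (AT4G00050, chromosome 4, 17639 to 20183), a bHLH transcription factor of the phytochrome-interacting group. UNE10 had 54.4, 50.9 and 54.3 CPM in pnet2_ac, 44.5, 44.9 and 50.1 CPM in pnet2_bc, 10.6, 11.7 and 9.52 CPM in pnet2_abc and 59.6, 59.4 and 61.2 CPM in WT. All 3 pnet2_bc libraries were below all WT libraries, with a log2 fold change of -0.37 ± 0.08. Between the double mutants themselves, pnet2_ac against pnet2_bc, no member was called by edgeR, where 0.257% of all tested genes were. There were 23 members at an unadjusted p under 0.05 (12.3%, against 10.9% of the other nuclear genes), and DESeq2 called 5 (2.67%, against 2.16% of the others). The adjusted p of this difference was 0.235 for MEE11 and 0.122 for EXGT-A3, so a difference between the double mutants was not shown for either. The comparisons against WT share the WT libraries and are not independent.

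**Figure D1:**
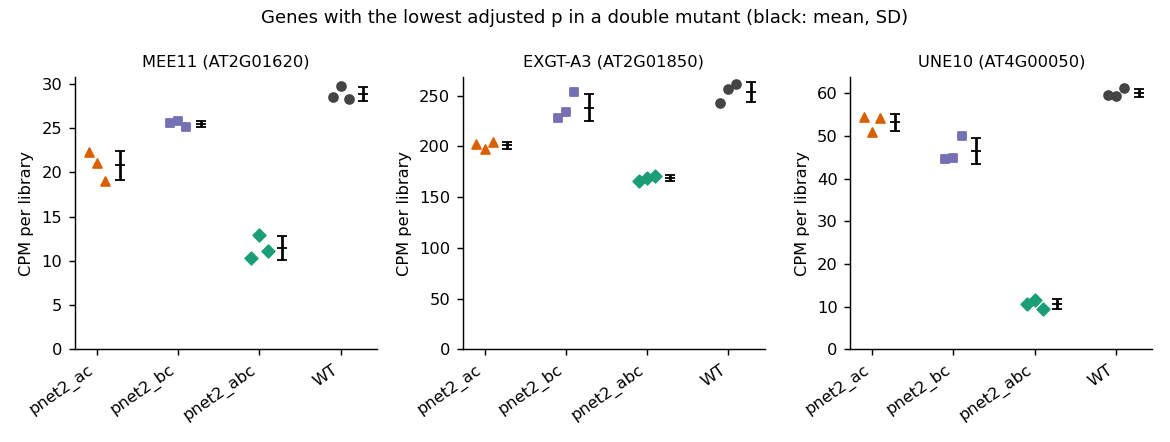
Level (y axis, CPM) of MEE11, EXGT-A3 and UNE10 in each library of pnet2_ac, pnet2_bc, pnet2_abc and WT; points are libraries and horizontal bars are means of 3. MEE11 and EXGT-A3 are the members called in pnet2_ac, UNE10 has the lowest adjusted p in pnet2_bc (0.064), and all 3 genes are lowest in pnet2_abc.

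Most of these genes changed in the triple mutant: 113 of the 187 tested genes changed, 51 higher and 62 lower. That is 60.4% of them, and most genes of the genome changed too, with calls for 64.5% of all 23330 genes tested, 32.5% as rises and 32% as falls. At an adjusted p under 0.05 and at least 2-fold there were 47 genes, 18 higher and 29 lower, or 25.1%, against 33.9% genome-wide, made up of 16% as rises and 18% as falls. Other nuclear genes weighted to the levels of the members were called in 66.9% of cases and at least 2-fold in 33.8%. The share called among the members was thus near the background and somewhat below it, and it is no result about their place beside the arrays. The median size of change, whatever its direction, was 0.59 on the log2 scale for the members and 0.74 for the other nuclear genes. The median signed log2 fold change was -0.03 for the members, with quartiles of -0.61 and 0.53, against 0.02 for the others, with quartiles of -0.76 and 0.72.

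The balance of directions depended on the scaling. With library size alone in place of TMM scaling all genes had a median of 0.20 and not 0.01 on the log2 scale, 68 members were called higher and 48 lower, and the share called higher became 58.6%, against 45.1% with TMM. Among the other nuclear genes it moved likewise, to 60.4% with library size alone, against 50.6% with TMM. Relative to the median of all genes the members lay at -0.04 under both scalings. Leaving out 1 library put the median of the members between -0.067 without WT library 3 and 0.00087 without WT library 1, and its difference from all genes between -0.094 without WT library 2 and -0.027 without WT library 1. The summed level of the 207 genes also differed between CPM, scaled by TMM, and the deposited TPM. It was 6645 ± 26.1 CPM in pnet2_ac, 6608 ± 79.9 CPM in pnet2_bc, 6225 ± 119 CPM in pnet2_abc and 6539 ± 138 CPM in WT. The sum of TPM was 6545 ± 119.95 in pnet2_ac, 6331 ± 101 in pnet2_bc, 6656 ± 19.1 in pnet2_abc and 6105 ± 77.2 in WT. The triple mutant was lowest by CPM scaled by TMM and highest by TPM. These measures differ in scaling as well as in unit. The TMM factors that multiply the library totals for CPM were 1.07 to 1.11 in pnet2_abc and 0.935 to 0.960 in WT. Taken on library totals without these factors, the CPM sum was highest in pnet2_abc, as by TPM. What the unit adds was not tested. Directions below are those under TMM unless another scaling is named.

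The share called grew with level, beside the arrays as elsewhere. Of the tested members under 1 CPM, 5 of 21 were called in pnet2_abc (23.8%, against 28.9% of the other nuclear genes of that level). The share was 50.0% of 52 members at 1 to 10 CPM (others 61.4%), 71.0% of 100 members at 10 to 100 CPM (others 75.2%) and 78.6% of 14 members at 100 CPM or more (others 85.8%). Members were below the other genes in each of the 4 classes. At least 2-fold changes were found in 23.8%, 32.7%, 23.0% and 14.3% of the members in these classes, against 28.9%, 43.1%, 28.5% and 45.0% of the other nuclear genes. The gap was widest in the highest class, which holds 14 members.

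**Figure D2:**
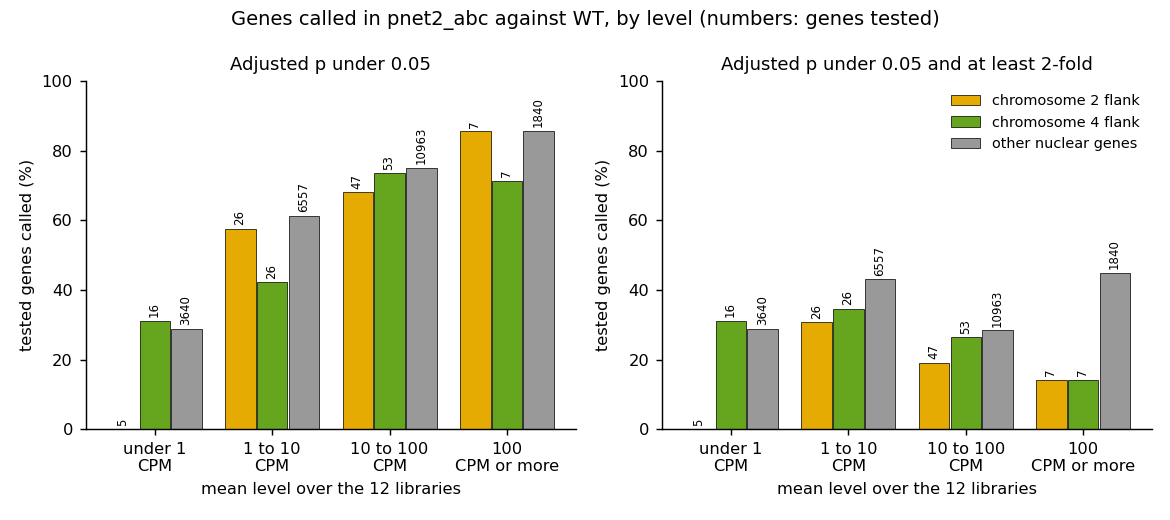
Percent of tested genes called in pnet2_abc against WT (y axis) by class of mean CPM over the 12 libraries (x axis). Bars are the chromosome 2 members, the chromosome 4 members and all other nuclear genes. The left panel is at an adjusted p under 0.05 and the right panel also at least 2-fold. On the left, chromosome 2 members reach 85.7% and the others 85.8% at 100 CPM or more. Chromosome 4 members stand at 73.6% at 10 to 100 CPM and 71.4% at 100 CPM or more.

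The counts on the 2 chromosomes were close. Beside the chromosome 2 array 53 of 85 tested genes were called in pnet2_abc (62.4%, others of like level 69.1%), 23 higher and 30 lower, and beside the chromosome 4 array 60 of 102 (58.8%, others 65.1%), 28 higher and 32 lower. With library size alone the counts were 33 higher and 24 lower on chromosome 2 and 35 higher and 24 lower on chromosome 4. Changes of at least 2-fold were 3 rises and 15 falls on chromosome 2, and 15 rises and 14 falls on chromosome 4 (6 and 12, and 18 and 10, with library size alone). On chromosome 2 the larger changes were mostly falls under both scalings. Whether the chromosomes differ was not tested.

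Other stretches of the same and other chromosomes gave counts close to these. The next 1000 locus numbers inward had 63.0% of 73 tested genes called on chromosome 2 and 67.0% of 103 on chromosome 4. The tops of chromosomes 1, 3 and 5, which carry no array of this kind, had 67.0% of 94, 61.8% of 123 and 61.9% of 126 tested genes called. At least 2-fold changes were made by 21.2% of the tested genes beside the chromosome 2 array and 28.4% beside the chromosome 4 array, against 32.9% and 40.8% in the next windows inward and 35.1%, 34.1% and 38.9% at the tops of chromosomes 1, 3 and 5. The windows beside the arrays had the lowest shares of large changes of the 7, and no test was made of that.

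**Figure D3:**
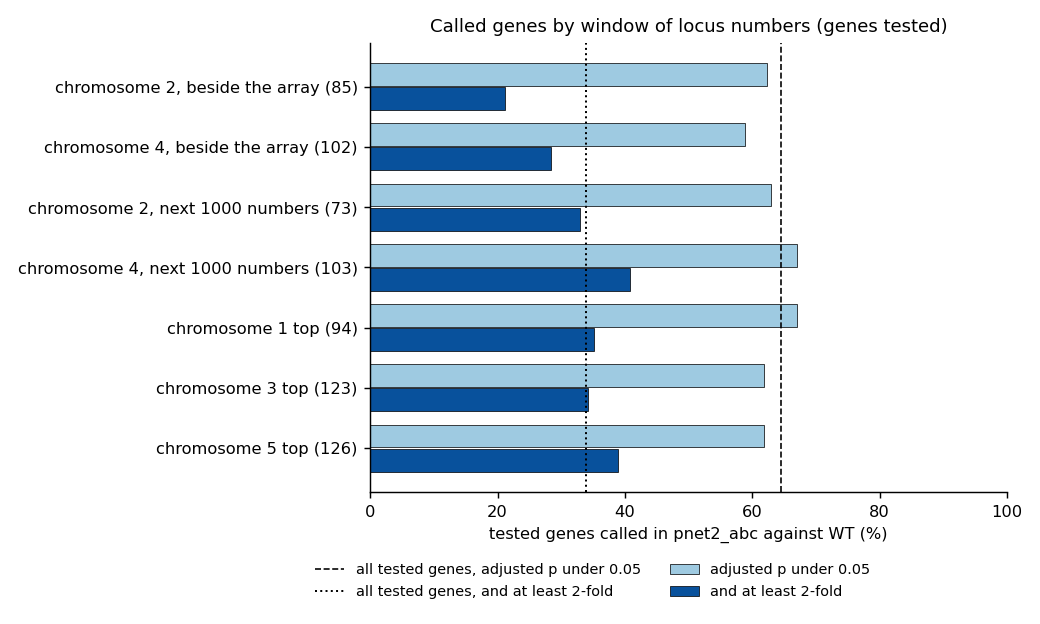
Percent of tested genes called in pnet2_abc against WT (x axis) in 7 windows of 1000 locus numbers, at an adjusted p under 0.05 and also at least 2-fold, with lines at the values for all tested genes (64.5% and 33.9%). For all calls the window beside the chromosome 2 array (62.4%) lies among the others and that beside the chromosome 4 array (58.8%) is lowest; for calls of at least 2-fold both are lowest, at 21.2% and 28.4%.

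Along chromosome 2 the changes moved toward falls with distance from the array, and along chromosome 4 they did not. In steps of 100 kb from the first chromosome 2 member, 9 higher and 6 lower of 29 tested genes, 6 and 8 of 20, 5 and 6 of 20, and 3 and 10 of 16 were called. The medians of the log2 fold change in these 4 steps were 0.30, 0.0073, -0.063 and -0.71, and with library size alone 0.51, 0.20, 0.13 and -0.52. They declined in order under both scalings, and the trend was not tested. The last step kept 3 higher and 10 lower with library size alone and holds only 16 genes. On chromosome 4 the steps had 3 higher and 8 lower of 22, 8 and 5 of 22, 8 and 8 of 26, 7 and 9 of 24, and 2 and 2 of 8, with medians of -0.20, 0.14, 0.037, -0.13 and 0.19. Both chromosome ends mixed rises and falls within each step.

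Neighbouring called genes went the same way and opposite ways in near equal numbers. Among 180 pairs of adjacent tested members, 60 had both genes called in pnet2_abc, and 28 of the 60 (46.7%) went the same way. Among 22989 pairs of other nuclear genes 9799 had both called and 5520 (56.3%) went the same way, and the difference was not tested. The longest runs of neighbours that fell together were AT2G01570 to AT2G01600, 4 genes with the DELLA gene RGA1 and the plastid gene CRR3, and AT2G01918 to AT2G01950, 4 genes with PQL3, BPC1, SGR5 and BRL2. Runs of 3 that fell were AT2G01900 to AT2G01910 and AT4G00150 to AT4G00165. Exons of 70 members overlap a gene on the opposite strand, 28 of them by at least 300 bases, and whether counting used the strand is not given in the sources used here, so calls of such overlapping genes are uncertain.

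**Figure D4:**
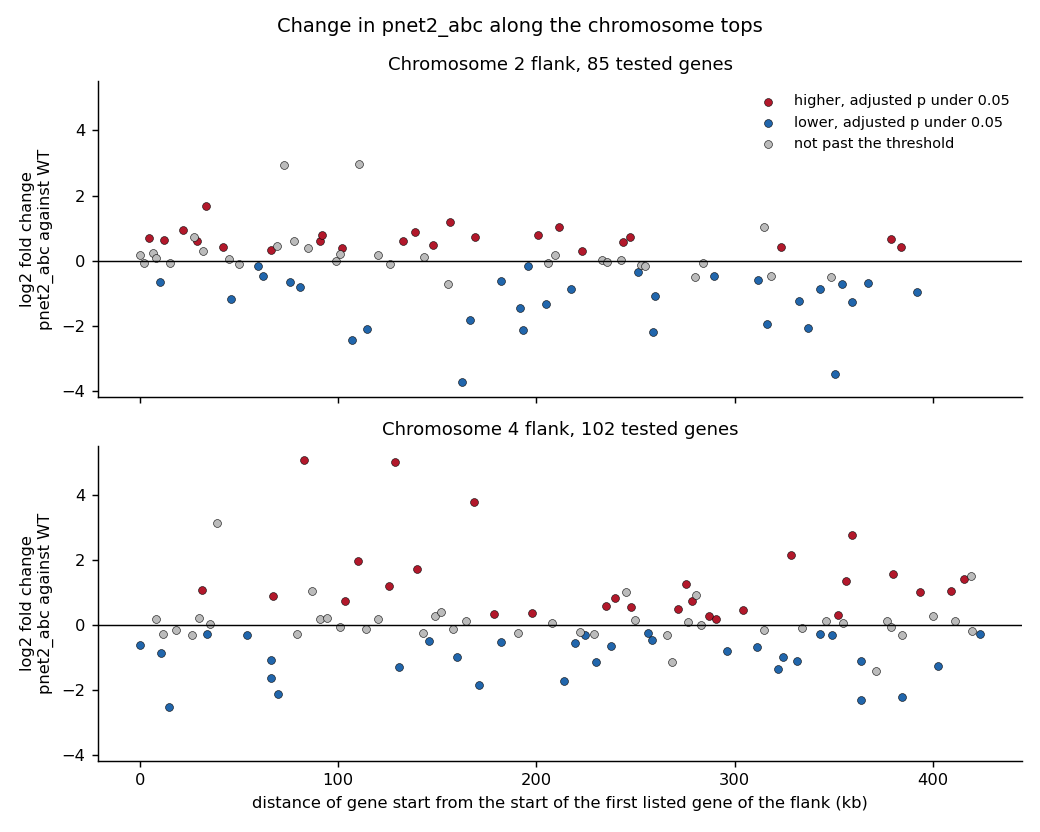
log2 fold change of each tested member in pnet2_abc against WT (y axis, log2 scale) by distance from the first member of its chromosome (x axis, kb), with called genes coloured and genes not called in grey. Rises and falls are mixed along both chromosomes, and on chromosome 2 the genes beyond 300 kb hold 3 called rises and 10 called falls.

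The genes nearest the arrays showed no common response. On chromosome 2 the first tested were AT2G01060, a myb-like gene, at 42.5 ± 4.50 CPM in pnet2_abc, against 37.97 ± 3.10 CPM in WT (adjusted p = 0.144, edgeR), AT2G01070 with a log2 fold change of -0.08 ± 0.09 (adjusted p = 0.439), and AT2G01080, which rose to 8.57 ± 1.46 CPM in pnet2_abc, against 5.23 ± 0.166 CPM in WT (0.71 ± 0.18, adjusted p = 0.00358). On chromosome 4 they were BRCA2(IV) (AT4G00020), a DNA repair gene, SD3 (AT4G00026), of the mitochondrial import machinery, and AT4G00030, a fibrillin of the plastid. BRCA2(IV) had 14.6, 14.7 and 12.5 CPM in pnet2_abc, against 21.3, 21.0 and 21.1 CPM in WT, without overlap, and fell by 0.60 log2 units (SE 0.09, adjusted p = 8.60e-05). SD3 did not pass the test (0.17 ± 0.07, adjusted p = 0.057). AT4G00030 fell to 17.4 ± 0.353 CPM in pnet2_abc, against 31.8 ± 3.74 CPM in WT (-0.86 ± 0.09, adjusted p = 1.03e-06).

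Grouped by role, the genes fell or rose in mixed fashion. The counts below are to be read against the 64.5% of all genes called, 32.5% as rises and 32% as falls. No list was tested against these shares. The role lists were drawn up by locus with earlier results of these data known. The 3 ribosomal protein genes passed the test as lower in pnet2_abc under TMM, by a small amount. AT2G01250 had 463, 501 and 482 CPM in pnet2_abc, against 537, 509 and 561 CPM in WT, a log2 fold change of -0.15 ± 0.06 (adjusted p = 0.0396, edgeR). RPS13A changed by -0.27 ± 0.07 (adjusted p = 0.00335) and AT4G00810 by -0.27 ± 0.09 (adjusted p = 0.0232). None of these 3 calls held with library size alone or on TPM, and AT2G01250 turned to a log2 fold change of 0.040 with library size alone and 0.061 on TPM, so a direction cannot be given for it. AT2G01250 was also lost without pnet2_abc library 1 (adjusted p = 0.12), pnet2_abc library 3 (0.0768), WT library 1 (0.0756) or WT library 3 (0.135). The call of AT4G00810 was lost without pnet2_abc library 1 (adjusted p = 0.0721), pnet2_abc library 3 (0.0972) or WT library 3 (0.114). Ribosomal protein genes have close copies elsewhere in the genome, so reads may be divided between copies. Of the 2 genes of DNA replication and repair, ORC4 (AT2G01120), of the origin recognition complex, rose (13.2 ± 0.772 CPM in pnet2_abc, against 8.55 ± 1.93 CPM in WT, 0.63 ± 0.15, adjusted p = 0.00217) and BRCA2(IV) fell.

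Hormone genes mostly fell: of 9 tested, 1 rose and 6 fell (1 and 5 with library size alone). The list had a median log2 fold change of -0.64, and all tested genes had one of 0.01. PIN4 (AT2G01420), an efflux carrier that moves auxin out of cells, had 67.7, 75.9 and 75.9 CPM in pnet2_ac, 80.1, 92.5 and 97.8 CPM in pnet2_bc, 12.99, 12.1 and 15.6 CPM in pnet2_abc and 83.8, 58.8 and 78.5 CPM in WT. The triple mutant libraries were far below all others, and the double mutants overlapped WT. PIN4 fell 5.43-fold in pnet2_abc (-2.44 ± 0.14, adjusted p = 5.27e-09, edgeR). The cytokinin response regulator RR14 (AT2G01760) fell to 5.38 ± 1.29 CPM in pnet2_abc, against 11.3 ± 1.84 CPM in WT (-1.07 ± 0.22, adjusted p = 0.000773). The cytokinin receptor WOL (AT2G01830) fell too (-0.47 ± 0.13, adjusted p = 0.00538), though not with library size alone (adjusted p = 0.0858).

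RGA1 (AT2G01570), a DELLA repressor of gibberellin responses, had 55.8, 53.8 and 52.4 CPM in pnet2_abc, against 89.6, 80.7 and 81.5 CPM in WT, and fell (-0.64 ± 0.07, adjusted p = 5.04e-06, edgeR). BRL2 (AT2G01950), a receptor kinase related to the brassinosteroid receptor, had 16.8 ± 0.96 CPM in pnet2_abc, against 27.1 ± 2.32 CPM in WT (-0.69 ± 0.12, adjusted p = 0.000145). The SAUR-type auxin-responsive gene AT4G00880 changed by -1.10 ± 0.17 (adjusted p = 7.91e-05), but 414 of its exonic bases overlap AT4G00883 on the other strand. The gene that rose was BSK3 (AT4G00710), a kinase downstream of the brassinosteroid receptor, at 78.5 ± 2.90 CPM in pnet2_abc, against 65.1 ± 2.12 CPM in WT (0.27 ± 0.07, adjusted p = 0.0047). The auxin-response repressor IAA32 (AT2G01200) had 0.252 ± 0.193 CPM in pnet2_abc, against 0.243 ± 0.18 CPM in WT (adjusted p = 0.973), and the receptor kinase gene AT2G01820 had 94.4 ± 5.35 CPM in pnet2_abc, against 98.1 ± 9.44 CPM in WT (adjusted p = 0.594).

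Genes of transcription and chromatin leaned to lower levels, with 3 rises and 10 falls among 19 tested of 21 and a median log2 fold change of -0.30 (4 and 8 with library size alone). UNE10, given above, fell 5.66-fold in pnet2_abc (-2.50 ± 0.09, adjusted p = 6.43e-11, edgeR), the fall with the lowest adjusted p of these role groups. YAB3 (AT4G00180), which marks the lower side of leaves and other lateral organs, had 37.6, 32.6 and 37.8 CPM in pnet2_ac, 30.0, 37.1 and 39.0 CPM in pnet2_bc, 8.33, 8.58 and 9.60 CPM in pnet2_abc and 37.4, 34.2 and 44.2 CPM in WT. Its 3 triple mutant libraries lay below all 9 others (-2.13 ± 0.12, adjusted p = 6.54e-09). HB17 (AT2G01430), a homeodomain-leucine zipper factor, had 1.13 ± 0.0885 CPM in pnet2_abc, against 4.88 ± 0.294 CPM in WT (-2.11 ± 0.18, adjusted p = 3.00e-07).

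ATMYC1 (AT4G00480), a bHLH factor of epidermal cell fate, had 5.50 ± 1.35 CPM in pnet2_abc, against 18.2 ± 1.32 CPM in WT (-1.73 ± 0.15, adjusted p = 3.96e-07, edgeR). SGR5 (AT2G01940), a zinc finger factor of shoot gravitropism, had 4.65 ± 0.878 CPM in pnet2_abc, against 11.1 ± 0.931 CPM in WT (-1.25 ± 0.16, adjusted p = 1.14e-05). ANL2 (AT4G00730), a homeodomain factor of the epidermis, had 46.5 ± 6.97 CPM in pnet2_abc, against 80.4 ± 7.37 CPM in WT (-0.79 ± 0.10, adjusted p = 1.68e-05). The epidermal marker ATML1 fell in the same libraries, to 26.4 ± 5.21 CPM in pnet2_abc, against 97.3 ± 14.4 CPM in WT, and its part in these falls was not tested. BPC1 (AT2G01930), a GAGA-binding factor, fell by 0.73 log2 units (adjusted p = 3.58e-05) and APRR8 (AT4G00760) by 0.98 (adjusted p = 3.80e-06), the second with 1558 exonic bases shared with AT4G00770 on the other strand. Smaller falls of HAM3 (AT4G00150), of the shoot meristem, and LIF2 (AT4G00830), a partner of the Polycomb protein LHP1, at -0.31 and -0.30, were lost with library size alone (adjusted p = 0.265 and 0.195).

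The rises were CCT (AT4G00450), the Mediator subunit MED12, at 67.2 ± 1.84 CPM in pnet2_abc, against 52.3 ± 1.68 CPM in WT (0.36 ± 0.07, adjusted p = 0.000408, edgeR), and 2 genes of low level. The bHLH gene AT4G00870 had 2.32, 2.64 and 1.93 CPM in pnet2_abc, against 0.302, 0.654 and 0.054 CPM in WT (2.77 ± 0.72, adjusted p = 0.00433). The storekeeper-related gene AT4G00250 had 1.74, 2.98 and 2.15 CPM in pnet2_abc, against 0.893, 0.523 and 0.337 CPM in WT (1.97 ± 0.47, adjusted p = 0.00254). In both the groups did not overlap. The storekeeper-related genes form a cluster on chromosome 4 that was looked at after its values were seen: 2 of 4 tested members of 8 rose. AT4G00390 of this family had 8.05, 11.4 and 9.60 CPM in pnet2_abc, against 0.578, 0.639 and 0.891 CPM in WT (3.78 ± 0.36, adjusted p = 6.55e-07), while AT4G00238 and AT4G00270 had log2 fold changes of -0.07 ± 0.13 and -0.11 ± 0.11 and did not pass. Members of such a family can share reads, which makes their single values uncertain.

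Plastid genes all passed the test, with 2 rises and 5 falls among 7 and a median log2 fold change of -0.66 (2 and 5 with library size alone). PQL3 (AT2G01918), a PsbQ-like protein of the chloroplast NDH complex, had 15.7, 14.1 and 14.3 CPM in pnet2_ac, 14.6, 15.7 and 16.2 CPM in pnet2_bc, 2.18, 2.00 and 0.639 CPM in pnet2_abc and 16.0, 15.9 and 21.8 CPM in WT. CRR3 (AT2G01590), also needed for the NDH complex, had 43.6, 68.1 and 70.4 CPM in pnet2_ac, 49.5, 72.3 and 70.0 CPM in pnet2_bc, 18.3, 14.9 and 12.8 CPM in pnet2_abc and 73.9, 70.6 and 57.5 CPM in WT. In both genes every triple mutant library was far below every other library. PQL3 fell 11.2-fold (-3.49 ± 0.32, adjusted p = 5.32e-07, edgeR) and CRR3 4.39-fold (-2.14 ± 0.20, adjusted p = 7.46e-07).

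APG2 (AT2G01110), the TatC subunit of thylakoid protein transport, had 73.1 ± 2.08 CPM in pnet2_abc, against 116 ± 8.59 CPM in WT (-0.66 ± 0.08, adjusted p = 9.61e-06, edgeR). The plastid phosphate transporter ANTR2 (AT4G00370) had 68.8 ± 2.73 CPM in pnet2_abc, against 135 ± 5.10 CPM in WT (-0.98 ± 0.06, adjusted p = 1.18e-08). The envelope cation antiporter KEA2 (AT4G00630) changed by -0.47 ± 0.10 (adjusted p = 0.0011), which did not pass on TPM (adjusted p = 0.0502, limma). The leaf markers fell in the same libraries, RBCS1A to 5488 CPM in pnet2_abc, against 17309.8 CPM in WT, and LHCB1.3 to 2823 CPM in pnet2_abc, against 12889 CPM in WT. Their part in these falls was not tested. Against this direction went PDE345 (AT2G01140), a plastid fructose-bisphosphate aldolase, with 319, 359.9 and 376 CPM in pnet2_abc, against 186, 180.3 and 183 CPM in WT (0.94 ± 0.07, adjusted p = 4.92e-08). DGD2 (AT4G00550), which makes the galactolipid used when phosphate is short, also rose (20.8 ± 1.86 CPM in pnet2_abc, against 13.7 ± 2.07 CPM in WT, 0.60 ± 0.13, adjusted p = 0.0013).

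Membrane transport genes went both ways, with 3 rises and 2 falls among 6 tested of 7 and a median log2 fold change of 0.30 (4 and 2 with library size alone). ECA2 (AT4G00900), a calcium pump of the endoplasmic reticulum, had 40.3, 27.1 and 28.1 CPM in pnet2_ac, 29.0, 35.2 and 33.3 CPM in pnet2_bc, 86.4, 86.9 and 88.4 CPM in pnet2_abc and 32.7, 30.3 and 25.99 CPM in WT. The triple mutant libraries were close together and above all others, 2.94-fold above WT (1.56 ± 0.14, adjusted p = 4.44e-07, edgeR). SOS1 (AT2G01980), the plasma membrane sodium/proton antiporter of salt tolerance, had 31.3 ± 1.13 CPM in pnet2_abc, against 23.2 ± 2.98 CPM in WT (0.43 ± 0.10, adjusted p = 0.00253). The amino acid transporter BAT1 (AT2G01170) rose (0.62 ± 0.22, adjusted p = 0.0248) but did not pass without pnet2_abc library 3 (adjusted p = 0.0777), WT library 2 (0.0836) or WT library 3 (0.0982). The falls were ABCG7 (AT2G01320), an ABC transporter, at 38.9 ± 2.92 CPM in pnet2_abc, against 67.6 ± 3.23 CPM in WT (-0.80 ± 0.08, adjusted p = 9.28e-07), and the aquaporin PIP1;4, at 181 ± 16.1 CPM in pnet2_abc, against 262 ± 20.6 CPM in WT (-0.54 ± 0.10, adjusted p = 0.000432), whose family members are alike in sequence.

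Of 6 tested genes of 7 for cell wall and cutin, 1 rose and 2 fell (the same counts with library size alone; median log2 fold change -0.04). EXGT-A3 fell, as given above. GPAT8 (AT4G00400), an acyltransferase of cutin synthesis, had 10.3, 8.58 and 9.36 CPM in pnet2_abc, against 37.2, 28.4 and 35.7 CPM in WT, without overlap (-1.84 ± 0.10, adjusted p = 4.78e-09, edgeR). QUA3 (AT4G00740), a putative methyltransferase of pectin, rose (54.6 ± 0.728 CPM in pnet2_abc, against 39.3 ± 0.546 CPM in WT, 0.47 ± 0.06, adjusted p = 1.19e-05). CYP86A2 (AT4G00360), a fatty acid hydroxylase of the cutin pathway with 782 exonic bases over a gene on the other strand, had 149 ± 17.4 CPM in pnet2_abc, against 161 ± 3.36 CPM in WT and did not pass (-0.11 ± 0.09, adjusted p = 0.301). Of 3 genes for microtubules and cell division 2 fell, the cyclin gene CYCJ18 (AT2G01905), at 0.419 ± 0.102 CPM in pnet2_abc, against 1.73 ± 0.691 CPM in WT (-2.05 ± 0.40, adjusted p = 0.000525), and ATMAP65-6 (AT2G01910), a microtubule-bundling protein, at 32.7 ± 2.42 CPM in pnet2_abc, against 60.1 ± 3.34 CPM in WT (-0.88 ± 0.08, adjusted p = 3.33e-07).

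The largest changes in pnet2_abc among called members with a mean of at least 5 CPM were taken in both directions, 8 each way. The largest rise was that of CRCK2 (AT4G00330), a calmodulin-binding receptor-like cytoplasmic kinase. It had 23.3, 23.7 and 24.6 CPM in pnet2_ac, 20.3, 25.3 and 22.0 CPM in pnet2_bc, 77.8, 80.8 and 82.6 CPM in pnet2_abc and 24.9, 26.2 and 22.7 CPM in WT. The triple mutant stood 3.27-fold above WT (1.71 ± 0.09, adjusted p = 1.91e-09, edgeR), and the double mutants overlapped WT. ATOZI1 had 81.3, 96.3 and 84.2 CPM in pnet2_ac, 82.1, 79.8 and 72.2 CPM in pnet2_bc, 184, 218 and 178 CPM in pnet2_abc and 72.5, 80.4 and 77.2 CPM in WT (1.33 ± 0.09, adjusted p = 3.45e-08). Its triple mutant libraries were above all others.

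The other rises not given above follow. The cysteine-rich receptor-like kinase gene CRK41 (AT4G00970) had 11.8 ± 0.871 CPM in pnet2_abc, against 4.47 ± 1.42 CPM in WT (1.40 ± 0.22, adjusted p = 9.48e-05, edgeR), and AT4G00300, also annotated as a receptor-like kinase, had 74.6 ± 8.07 CPM in pnet2_abc, against 32.7 ± 1.87 CPM in WT (1.19 ± 0.13, adjusted p = 3.58e-06). The WD40 repeat gene AT4G00090 had 53.4 ± 2.93 CPM in pnet2_abc, against 25.6 ± 1.51 CPM in WT (1.06 ± 0.08, adjusted p = 4.94e-08). The remorin family gene AT4G00670 had 7.85 ± 1.08 CPM in pnet2_abc, against 3.29 ± 0.541 CPM in WT (1.25 ± 0.28, adjusted p = 0.00136), with 316 exonic bases over AT4G00660 on the other strand.

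PAP1 (AT2G01180), a phosphatidic acid phosphatase of lipid signalling, was the least steady of the rises. It had 6.97, 10.1 and 7.12 CPM in pnet2_ac, 2.07, 9.36 and 8.71 CPM in pnet2_bc, 4.02, 45.2 and 42.9 CPM in pnet2_abc and 9.01, 9.93 and 9.65 CPM in WT. Of the triple mutant libraries 2 were high and library 1 lay below every WT library. The log2 fold change was 1.69 ± 0.66 (adjusted p = 0.039, edgeR). It did not pass without pnet2_abc library 2 (adjusted p = 0.136) or 3 (0.12), nor without WT library 1 (0.0947), 2 (0.0837) or 3 (0.0868), and was 0.000595 without pnet2_abc library 1. With a replicate block it was 0.0736.

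The largest fall was that of MLP328 (AT2G01520), of the major latex protein family. It had 224, 213 and 156 CPM in pnet2_ac, 176, 141 and 174 CPM in pnet2_bc, 14.2, 7.74 and 6.84 CPM in pnet2_abc and 134, 112 and 135 CPM in WT. It fell 13.2-fold in the triple mutant (-3.72 ± 0.25, adjusted p = 2.18e-08, edgeR), while every library of the double mutants lay above every WT library, at 0.64 ± 0.22 (adjusted p = 0.191) in pnet2_ac and 0.37 ± 0.22 (adjusted p = 0.606) in pnet2_bc, which did not pass. Its neighbour and close relative MLP329 (AT2G01530) had 17.5 ± 4.57 CPM in pnet2_abc, against 61.8 ± 9.07 CPM in WT (-1.82 ± 0.21, adjusted p = 4.92e-06), and reads may be shared between them. Other large falls besides PQL3, UNE10, PIN4, CRR3 and YAB3 were AT4G00910, of a malate transporter family, at 1.26 ± 0.399 CPM in pnet2_abc, against 5.74 ± 2.16 CPM in WT (-2.20 ± 0.32, adjusted p = 4.51e-05), and AT2G01755, at 3.92 ± 0.698 CPM in pnet2_abc, against 17.9 ± 2.60 CPM in WT (-2.19 ± 0.16, adjusted p = 5.90e-08). Both overlap a gene on the other strand, AT4G00910 by 1549 bases with AT4G00905 and AT2G01755 by 621 bases with MAP70-3.

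**Figure D5:**
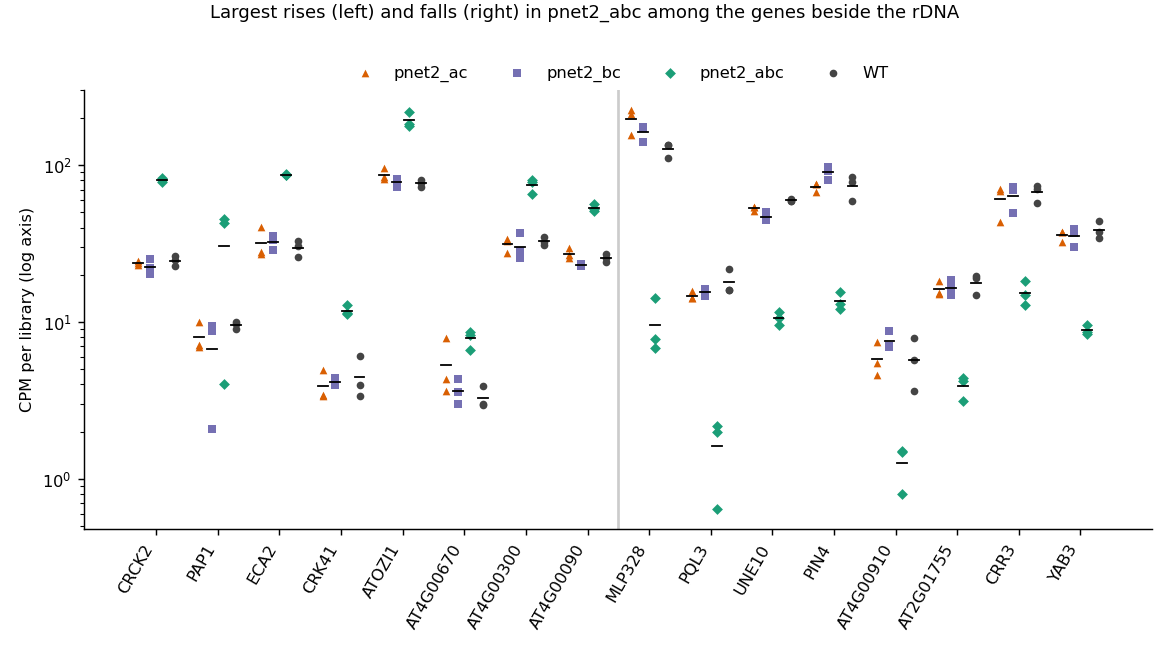
Level of the members with the largest called rises and falls in pnet2_abc against WT in each library (CPM, log axis), with rises left and falls right of the grey line; points are libraries and bars are means of 3. In every gene shown but PAP1 the pnet2_abc libraries lie apart from WT; PAP1 has its 3 pnet2_abc libraries at 4.02, 45.2 and 42.9 CPM.

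Outside the rule on level, the largest log2 fold changes of the 113 belonged to genes near the detection floor in WT, which are named after their values were seen. LBD31 (AT4G00210), of the LOB domain family of transcription factors, had 1.34, 2.40 and 2.23 CPM in pnet2_abc, against 0.171, 0 and 0 CPM in WT. The RING/U-box gene AT4G00305 had 2.14, 2.67 and 2.34 CPM in pnet2_abc, against 0, 0 and 0.216 CPM in WT. Both passed the test (adjusted p = 0.00254 and 0.00301, edgeR), and in both 2 WT libraries held no count, so no fold is given. In the double mutants LBD31 had 0.28, 0.0397 and 0.0724 CPM in pnet2_ac and 0.27, 0.357 and 0.069 CPM in pnet2_bc, and AT4G00305 had 0.21, 0 and 0.0724 CPM in pnet2_ac and 0.352, 0.255 and 0.331 CPM in pnet2_bc, below every pnet2_abc library.

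The double mutants showed little of these changes. Over the 113 members called in pnet2_abc the median absolute log2 fold change was 0.82 in pnet2_abc, 0.13 in pnet2_ac and 0.13 in pnet2_bc. The 113 were chosen by their change in pnet2_abc, which by itself raises the value there. Over all 187 tested members, without that choice, the medians were 0.59 in pnet2_abc, 0.13 in pnet2_ac and 0.13 in pnet2_bc. The other nuclear genes had medians of 0.74 in pnet2_abc, 0.16 in pnet2_ac and 0.14 in pnet2_bc. Small changes in the double mutants are thus not particular to the members. In pnet2_ac and in pnet2_bc alike, 77.9% of the 113 were within 0.25 log2 units of WT, a share not taken for the other nuclear genes. The 3 comparisons use the same WT libraries, so these values are given side by side and not tested against each other.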

How the data were processed

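Messenger RNA of whole seedlings was measured in 12 strand-specific libraries, 3 for each of 4 genotypes. The deposited tables hold raw counts per gene and TPM values (a level scaled by transcript length) for 27436 genes. HISAT2 2.0.4, HTSeq 0.6.1p1 and the build TAIR10 are named in the submitters' processing notes, which give no roles or settings here. From the deposited counts, CPM was taken on library totals scaled by TMM. Genes that passed filterByExpr (23330) were scaled by TMM, the trimmed mean of M-values, and fitted with edgeR 4.0.16 in R 4.3.3 by glmQLFit with 1 mean per genotype over all 12 libraries (8 residual degrees of freedom), and p-values were adjusted by Benjamini-Hochberg over all tested genes. DESeq2 1.42.0 on counts and limma 3.58.1 on log2(TPM + 1) and log2(TPM + 0.1) of the deposited TPM served as alternatives, with library size alone, other filters, fits of each pair of genotypes, a replicate block and each library left out.

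Totals of 65758625 to 115881203 counts per library limit the precision of low genes. Replicate libraries differed by more than sampling noise, with a chi-square of 31.2 to 48.9 per degree of freedom. Each was counted as 1 sample, though this spread does not tell if they came from separate plants or cultures. In the comparisons made here, same-numbered libraries of different genotypes correlated by -0.00826 to 0.168 in their deviations from the group means. Differently numbered ones correlated by -0.164 to 0.119. The numbers were not taken to pair the libraries, but these values cannot exclude a shared batch. Positions, symbols and overlaps came from the annotation of TAIR10.1, matched by locus number for all 207 genes.

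Members and lists were chosen with earlier results of these data known. Like level was met by 4 classes of mean CPM (under 1, 1 to 10, 10 to 100, 100 or more), with the shares of the other nuclear genes weighted to the classes of the members. Named genes were those called in or between the double mutants, the 8 largest called rises and falls in pnet2_abc at a mean of 5 CPM or more, the 3 tested genes nearest each array, the 5 with the highest TPM on each chromosome, and 8 role lists. AT2G01440 was dropped from the DNA replication and repair list, as the reference describes it otherwise.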

Additional observations from a re-analysis of the deposited data

How the results depend on the processing

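In pnet2_abc against WT the count of 113 members called stayed within 1.5 times under every alternative, at 101 with a filter of 5 CPM in 3 libraries to 122 on TPM with no filter, at 102 to 106 with 1 library left out, and at 107 without WT library 1 and pnet2_ac library 2, an alternative chosen after seeing the data. The split moved with the scaling: 45.1% of the called members were higher with TMM, 58.6% with library size alone and 59.0% to 60.7% on TPM; among the other nuclear genes the shares were 50.6%, 60.4% and 61.2% to 63.2%. In pnet2_ac against WT the 2 calls became 7 with DESeq2 (3.74%, other nuclear genes 4.60%), 0 to 1 with 1 library left out and 0 without WT library 1 and pnet2_ac library 2. In pnet2_bc against WT the count of 0 became 2 with DESeq2 (1.07%, others 2.92%) and 1 with the filter of 5 CPM. In pnet2_ac against pnet2_bc it became 5 with DESeq2 (2.67%, others 2.16%) and 0 to 1 with 1 library left out. The replicate block gave 2 members in pnet2_ac, 0 in pnet2_bc and 113 in pnet2_abc (52 higher and 61 lower); among named genes it ended the calls of AT2G01250 (adjusted p = 0.0505) and PAP1. The only called named gene whose direction turned in pnet2_abc was AT2G01250, with a log2 fold change of -0.15 with TMM, 0.040 with library size alone (adjusted p = 0.548) and 0.061 on TPM (adjusted p = 0.337 with 1 added, 0.335 with 0.1 added, 0.387 with no filter). Of 55 named members called in pnet2_abc, 46 were called under every alternative that could be run for them (3 were removed by a filter in some of the 16), and 9 were lost under at least 1. Of those not called, 11 took both signs across the alternatives, and AT4G00895, at -0.05 with TMM, passed as higher on TPM in all 3 settings (0.16 in each). The cause was not tested. Depth limits the 20 members not tested, none of them above 28 counts in a library.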

Other observations

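Genes that act on the rRNA arrays themselves lie elsewhere in the genome. Of 13 such genes for rRNA gene silencing and nucleolar organisation, 4 rose and 4 fell in pnet2_abc against WT by edgeR's quasi-likelihood test. That is 61.5%, where 64.5% of all tested genes were called (results under other scalings were not kept for this list). NUC2 (AT3G18610), the nucleolin copy that is little used in WT, had 15.9, 19.5 and 16.7 CPM in pnet2_abc, against 0.788, 1.61 and 2.39 CPM in WT (3.44 ± 0.32, adjusted p = 5.10e-07). All 3 triple mutant libraries were above WT. HDA6 (AT5G63110), a histone deacetylase needed to silence surplus rRNA genes, had 40.7 ± 2.78 CPM in pnet2_abc, against 22.1 ± 1.499 CPM in WT (0.88 ± 0.09, adjusted p = 1.00e-06). The methyl-binding gene MBD10 (AT1G15340) had 43.2 ± 2.22 CPM in pnet2_abc, against 146 ± 10.3 CPM in WT (-1.75 ± 0.08, adjusted p = 4.79e-10), and FAS2 (AT5G64630), of chromatin assembly factor CAF-1, had 4.09 ± 0.606 CPM in pnet2_abc, against 7.80 ± 1.31 CPM in WT (-0.93 ± 0.20, adjusted p = 0.00102). In pnet2_ac, where 1.14% of all tested genes were called, 2 of the 13 rose, NUC1 (AT1G48920, 0.35 ± 0.06, adjusted p = 0.0188) and HDT1 (AT3G44750, 0.37 ± 0.07, adjusted p = 0.0322). In pnet2_bc no gene of the list passed edgeR's test, with 3 at an unadjusted p under 0.05. DESeq2 results were not kept for this list.

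The table also lists a few loci between the chromosome 2 tip and AT2G01060 that lie among the rRNA genes and outside the locus range described above. All 4 that could be tested rose in pnet2_abc, each at least 2-fold. Genome-wide, 32.5% of genes passed as rises in this comparison, and 16% did so at 2-fold or more. Like the other lists, these loci were chosen with earlier results of these data known. The set was not tested against the genome-wide shares. AT2G01010, annotated as rRNA, had 1.62, 1.69 and 1.36 CPM in pnet2_abc, against 0.0788, 0.0871 and 0.0945 CPM in WT (4.14 ± 0.55, adjusted p = 1.97e-05, edgeR), and AT2G01020, also rRNA, had 6.30, 8.20 and 5.20 CPM in pnet2_abc, against 0.683, 0.93 and 0.742 CPM in WT (3.06 ± 0.29, adjusted p = 6.14e-07). AT2G01008 had 9.87, 17.0 and 12.3 CPM in pnet2_abc, against 0.486, 0.203 and 0.229 CPM in WT (5.40 ± 0.79, adjusted p = 4.66e-05), and AT2G01021 had 84.7 ± 16.0 CPM in pnet2_abc, against 34.5 ± 2.99 CPM in WT (2.46-fold higher, adjusted p = 8.78e-07). The pnet2_abc libraries did not overlap WT in these genes. Array copies are nearly identical, so these reads cannot be placed in 1 array, and the libraries were made from mRNA.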
